A study of Rattus norvegicus with 48 samples.

Results

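The comparison described here is that of rat brain cultures given cocaine alone with untreated cultures, over every gene of the deposited expression table. Its members were the 3 libraries labelled Cocaine and the 3 labelled Control, which are 6 of the 48 RNA-seq libraries of the series. Both groups were primary mixed cortical cultures from Sprague-Dawley rat fetuses of 18 days, kept 3 weeks in vitro. The Cocaine cultures received 25 µM cocaine for 24 h and the Control cultures neither cocaine, Tat nor any compound. The study as a whole set out to follow how the HIV protein Tat, cocaine and small molecules act on such cultures. Where cocaine alone is set beside cocaine given with Tat, the cultures had Tat at 6 ng/mL for 48 h, either without a compound (Tat) or with Amlexanox at 25 µM, Tazemetostat at 3 µM, 4OI (4-octyl itaconate) at 250 µM or Senicapoc at 1 µM. In each of these 5 settings a group of 3 libraries had 25 µM cocaine for 24 h and another group of 3 had none. The labels do not say whether replicates were separate dissections, plates or wells, so that every p-value below rests on spread between libraries only. That spread was pooled over all groups of a fit, and came from Cocaine and Control alone only where just the 6 libraries were fitted.

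Cocaine blocks the plasma membrane transporters that take dopamine, noradrenaline and serotonin back into nerve endings, and at higher concentrations it also blocks voltage-gated sodium channels. In the cortex these transporters sit mainly on axons whose cell bodies lie in the midbrain and brainstem. Firing of cortical neurons and the calcium that enters with it switch on immediate early genes, most of which encode transcription factors, and later a set of secreted proteins and enzymes, partly through the factor CREB and its binding sequence, the cAMP response element.

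The label calls the cells neurons, and the libraries held several brain cell types. Neuronal genes were present in all 6 libraries, among them Snap25, a vesicle fusion protein, at 167 to 542 CPM, the read count scaled to a common library size. Gfap, the intermediate filament of astrocytes, was far higher, at 4044 to 5303 CPM. The complement gene C1qa of microglia lay between 318 and 1222 CPM, and Mbp, which encodes myelin basic protein, between 27.4 and 9293 CPM. The genes of the transporters that cocaine blocks, Slc6a2, Slc6a3 and Slc6a4, did not reach the minimum level for a test.

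The 3 Cocaine libraries differed widely from each other. Cocaine 1 was closest of all 47 other libraries to Control 1, with a Pearson correlation of 0.9942 over genes and 54 of 14180 genes over 2-fold apart. Against the other Cocaine libraries it had 1622 and 1619 such genes, and Cocaine 2 and Cocaine 3 differed in 932. Cocaine 3 was closest to Cocaine 2 (correlation 0.9697), and differed from Control 1, 2 and 3 in 1616, 1238 and 1504 genes. Cocaine 2 was closest to a library given Tazemetostat without Tat (0.9859), and differed from Control 1, 2 and 3 in 1883, 805 and 635 genes. The pairs of Control libraries differed in 396, 891 and 489 genes, and the 45 pairs within the other 15 groups, Control included, in 16 to 1919, with a median of 318. Over all genes the median within-group SD on the log2 scale was 0.246 for Cocaine, the largest of the 16 groups, against 0.187 for Control and 0.189 for the next in order. The share of genes with an SD over 1 was 3.40% for Cocaine and 1.18% for Control.

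Cocaine 3 was set apart by myelin. Mbp stood at 356 and 259 CPM in Cocaine 1 and 2, at 9293 CPM in Cocaine 3, and at 393, 162 and 27.4 CPM in the Control libraries. Summed over 10 myelin and oligodendrocyte genes, Cocaine 3 held 27714 CPM, which was 10.9 times the next highest of the 48 libraries and above the other 47 at 232 to 2552 CPM. Other genes far above the rest in this library were Cldn11 (1708 CPM), Mag (953 CPM), Mobp (774 CPM) and Ugt8 (574 CPM), all part of the myelin sheath or its lipid synthesis, and Enpp6 (42.95 CPM), a marker of newly forming oligodendrocytes. Of 12616 genes, 110 lay more than 4-fold above both other Cocaine libraries, and above Control, in Cocaine 3, against 13 in Cocaine 1 and 13 in Cocaine 2. The smooth muscle actin gene Acta2 (45.2 CPM), the collagen gene Col3a1 (4.69 CPM) and Vip (1.25 CPM), the precursor of vasoactive intestinal peptide, were lowest in Cocaine 3 among the 6 libraries.

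The 6 genes farthest above the other Cocaine libraries in Cocaine 2 were Cyp4b1, Lcn2, Aqp1, Steap4, Siglec1 and Top2a. Each was higher in at least 1 other of the 48 libraries, with highest values there of 13561 CPM for Lcn2, 273 CPM for Siglec1 and 82.1 CPM for Top2a. Lcn2, a secreted acute phase protein, stood at 402 CPM in Cocaine 2 and at 46.8 and 71.9 CPM in the other Cocaine libraries, with 94.7, 315 and 32.95 CPM in Control. Siglec1, a macrophage receptor, reached 88.8 CPM against 12.2 and 18.6 CPM, with 11.3, 58.9 and 21.6 CPM in Control. Top2a, the topoisomerase of dividing cells, reached 67.7 CPM against 14.9 and 12.4 CPM, with 8.47, 27.6 and 39.4 CPM in Control. Cocaine 1 had the lowest summed level of microglial genes of the 6 libraries and, among the Cocaine libraries, the highest of later activity-regulated genes. The summed level of immediate early genes was 542, 501 and 592 CPM in Cocaine 1, 2 and 3. In Control 1, 2 and 3 it was 585, 605 and 530 CPM. Cx3cr1, the microglial fractalkine receptor, was at 14.4 CPM in Cocaine 1 against 89.7 and 69.9 CPM, and Bdnf, which encodes brain-derived neurotrophic factor, at 112 CPM against 13.7 and 4.71 CPM, with 110, 47.02 and 23.1 CPM in Control.

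**Figure D1:**
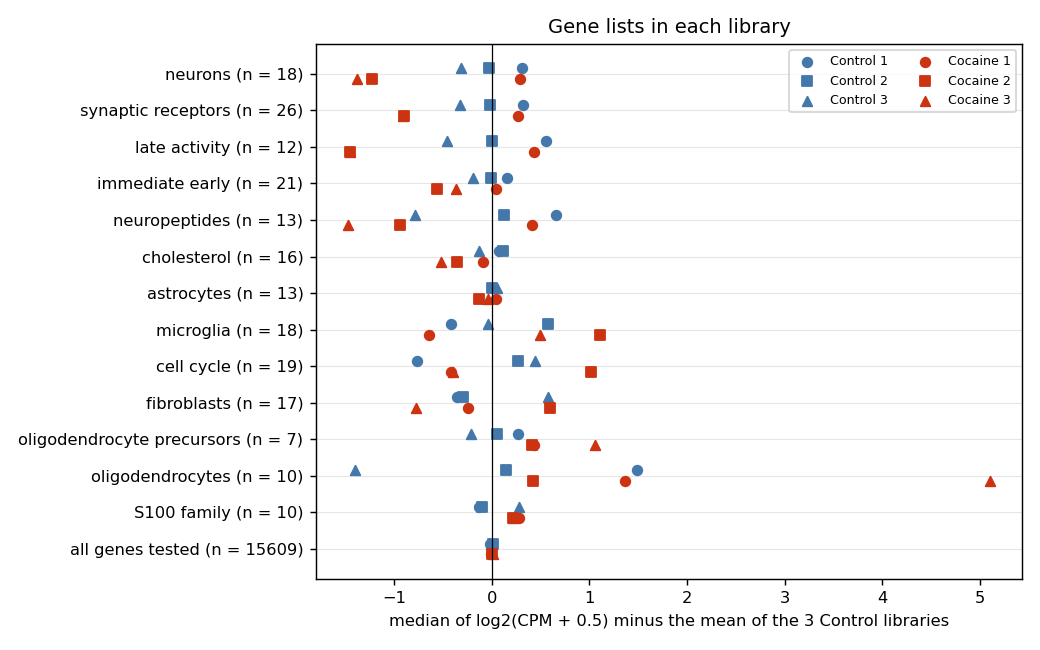
Median difference of each gene list in each of the 6 libraries from the mean of the 3 Control libraries, on the log2(CPM + 0.5) scale (x axis), with the number of tested genes beside each list (y axis). Cocaine 1 lies with Control 1 in neuron genes (0.29 and 0.31), Cocaine 2 and 3 lie below all Control libraries (-1.23 and -1.38), and Cocaine 3 stands alone in oligodendrocyte genes (5.11).

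The marker lists moved with these libraries. The median of 18 neuronal genes, relative to the Control mean, was 0.29 on the log2 scale in Cocaine 1, -1.23 in Cocaine 2 and -1.38 in Cocaine 3, against 0.31, -0.03 and -0.32 in Control. Cocaine 3 and Cocaine 2 ranked 2 and 5 from the lowest of all 48 libraries in this neuronal level. The median of 18 microglial genes was -0.65, 1.11 and 0.50 in the Cocaine libraries and -0.42, 0.57 and -0.04 in Control. Astrocyte genes differed little, with medians near 0 in all 6 libraries. Control 2 stood apart as well, in genes that interferon induces: Mx1, an antiviral GTPase, was at 502 CPM there, at 12.5 and 59.9 CPM in the other Control libraries and at 15.3, 152 and 57.0 CPM with cocaine. Each result below that rests on neuronal, glial or interferon genes therefore carries these differences between libraries, and their part in it was not tested beyond the values given.

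Of 15609 genes tested across the whole table with limma, 1 differed between Cocaine and Control at a false discovery rate (FDR) under 0.05, which is 0.00641%. At an unadjusted p under 0.05 there were 489 genes higher with cocaine (3.13%) and 833 lower (5.34%). The spread behind these p-values was pooled over the 7 groups fitted, of which Cocaine had the largest within-group SD. With only the 6 libraries fitted, 333 of 14998 genes had an unadjusted limma p under 0.05, against 1322 with the pooled spread. All counts of list members at an unadjusted p below use the pooled spread. The 3 Cocaine libraries lay above all 3 Control libraries for 479 genes (3.07%) and below all of them for 418 (2.68%). The median difference over all genes was 0.01 on the log2 scale.

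**Figure D2:**
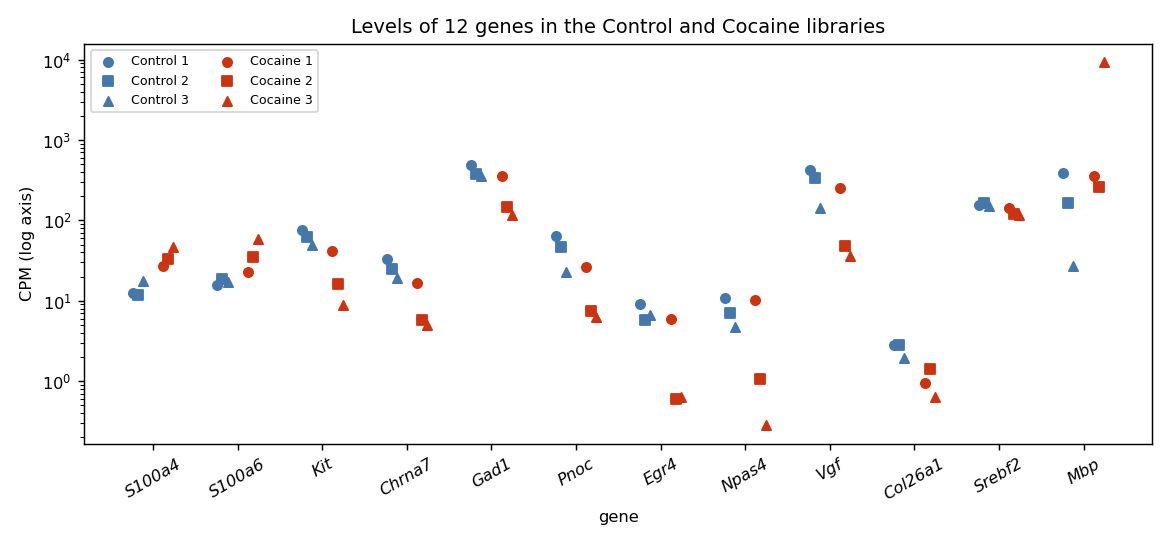
Expression of 12 genes in CPM (y axis, log scale) in each Control library (blue) and each Cocaine library (red), with the replicate given by the symbol and no averaging. S100a4 is higher in all Cocaine libraries, Kit, Chrna7 and Col26a1 are lower in all of them, and for Gad1, Egr4, Npas4, Vgf and Mbp Cocaine 1 lies at or near the Control libraries.

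The gene that rose was S100a4, which encodes a small calcium-binding protein of motile and mesenchymal cells. It was measured at 26.9, 33.2 and 46.8 CPM with cocaine and at 12.5, 11.9 and 17.5 CPM in Control, so that the groups did not overlap. The log2 difference was 1.30 with a standard error of 0.182 (limma FDR 0.0284). The call was lost without Cocaine 2 (FDR 0.154), Cocaine 3 (0.165), Control 1 (0.321) or Control 2 (0.356), with log2 differences of 1.09 to 1.48 over all 6 omissions. It was also lost when only these 6 libraries were fitted (FDR 0.997), with the same difference. S100a6, a related calcium-binding protein, was measured at 22.6, 35.3 and 58.3 CPM with cocaine against 15.5, 18.7 and 17.2 CPM (log2 difference 1.053, unadjusted limma p 0.00899). Of 10 S100 genes tested, 4 lay above all Control libraries (S100a3, S100a4, S100a6 and S100a16), where 3.07% of all genes did, and their median difference was 0.21. S100b, the abundant S100 gene of astrocytes, was at 1556, 1596 and 1423 CPM with cocaine and at 1288, 1114 and 2379 CPM in Control.

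None of the 26 tested genes for proteins that bind, carry or break down cocaine or the monoamines passed the FDR. At an unadjusted p, 0 were higher (3.13% of all genes) and 4 lower (5.34% of all genes), with a median difference of -0.21. For 0 of the 26 did the groups fail to overlap, where 3.07% of all genes were higher and 2.68% lower without overlap. The 4 were Scn8a (log2 difference -0.75) and Scn2b (-0.66), an alpha and a beta subunit of neuronal sodium channels, Drd1 (-0.66), the D1 dopamine receptor, and Slc29a4 (-0.50), the plasma membrane monoamine transporter. Scn8a was measured at 50.3, 20.03 and 20.4 CPM with cocaine and at 52.0, 44.1 and 43.8 CPM in Control, so that Cocaine 1 sat among the Control libraries. Drd1 was low throughout, at 6.42, 3.53 and 3.54 CPM against 9.82, 6.72 and 5.49 CPM. Maoa, which degrades monoamines, was at 101, 84.7 and 104 CPM against 97.5, 82.2 and 81.3 CPM. The vesicular transporter Slc18a2 was at 4.34 to 5.95 CPM with cocaine and 4.49 to 5.45 CPM in Control.

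Neuronal genes were lower in 2 of the 3 Cocaine libraries. All 18 neuronal markers tested had a log2 difference under 0, from -1.38 to -0.28 with a median of -0.76, 8 were lower at an unadjusted p (background 5.34%), and 0 passed the FDR. In these bulk libraries fewer cells of a type and less RNA per cell cannot be told apart. The inhibitory markers had the larger median, -1.35 over 3 genes, against -0.60 over 4 excitatory markers. That difference between the 2 sets was not tested. Gad1, which makes the transmitter GABA, was measured at 360, 147 and 115 CPM with cocaine and at 488, 376 and 356 CPM in Control (log2 difference -1.14). Gad2, the other GABA-synthesizing enzyme, stood at 384, 127 and 86.5 CPM against 582, 433 and 298 CPM (-1.38), and Slc32a1, which loads GABA into vesicles, at 114, 45.3 and 26.8 CPM against 157, 141 and 106 CPM (-1.35). Slc17a7, the vesicular glutamate transporter of excitatory neurons, stood at 562, 154 and 173 CPM against 625, 397 and 294 CPM (-0.76). For each of these 4 genes Cocaine 2 and 3 lay below every Control library and Cocaine 1 lay inside or at the edge of the Control range.

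Receptors of the synapse followed the same libraries. Of 26 genes for glutamate and GABA receptors, 7 were lower and 0 higher at an unadjusted p, against 5.34% and 3.13% of all genes, with a median of -0.50. Grin1, the obligatory subunit of NMDA receptors, was measured at 178, 66.0 and 65.8 CPM with cocaine and at 211, 186 and 136 CPM in Control (-0.93). Gabrd, a subunit of extrasynaptic GABA-A receptors, was the only one of the 26 below all Control libraries (2.68% of all genes), at 9.95, 4.68 and 5.35 CPM against 19.2, 14.7 and 11.2 CPM (-1.16). Gria2, a subunit of AMPA receptors, overlapped, at 308, 141 and 168 CPM against 280, 200 and 217 CPM (-0.25).

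By list median, genes that neuronal activity induces were also low in Cocaine 2 and 3. Among 21 immediate early genes, 7 were lower and 1 higher at an unadjusted p, against 5.34% and 3.13% of all genes, with a median of -0.27. Only 1 of the 21 lay below all Control libraries, where 2.68% of all genes did. Egr4, a transcription factor, was measured at 5.85, 0.595 and 0.643 CPM with cocaine and at 9.16, 5.74 and 6.63 CPM in Control (-1.92). Npas4, a factor induced by calcium entry in neurons, stood at 10.2, 1.06 and 0.282 CPM against 10.9, 6.96 and 4.77 CPM (-1.70), and the effector Arc at 12.97, 3.19 and 2.33 CPM against 12.2, 9.90 and 12.98 CPM (-1.22). Not all members had that pattern. Fos was at 30.8, 18.97 and 33.9 CPM against 34.01, 29.5 and 22.2 CPM (-0.06), and Jun was the 1 gene of the list higher with cocaine, at 171, 195 and 235 CPM against 136, 159 and 179 CPM (0.34). Of 12 later activity-regulated genes, 4 were lower (5.34% of all genes) and 0 higher at an unadjusted p, with a median of -0.86. Vgf, a precursor of secreted peptides, was measured at 251, 47.8 and 35.95 CPM with cocaine and at 427, 341 and 144 CPM in Control (-1.86). Scg2, a secretogranin of dense-core vesicles, stood at 459, 111 and 88.3 CPM against 474, 358 and 266 CPM (-1.10). None of these genes passed the FDR with all 6 libraries.

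The promoters of Vgf and Scg2 are shown because both held the palindromic cAMP response element, the letters TGACGTCA, and both genes followed the spread of the Cocaine libraries. The sequences are from RefSeq on the build GRCr8, 300 bases from 250 before to 50 after the annotated start, written 5′ to 3′ along the gene. Vgf is on the minus strand at chr12:25276971-25277270 and Scg2 on the minus strand at chr9:88256817-88257116. The capitals mark the element.
Vgf: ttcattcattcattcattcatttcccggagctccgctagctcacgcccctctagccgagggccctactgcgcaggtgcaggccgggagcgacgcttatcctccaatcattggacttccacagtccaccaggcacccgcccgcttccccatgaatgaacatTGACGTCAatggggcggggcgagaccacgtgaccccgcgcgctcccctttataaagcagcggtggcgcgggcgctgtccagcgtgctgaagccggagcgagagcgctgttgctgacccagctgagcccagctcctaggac
Scg2: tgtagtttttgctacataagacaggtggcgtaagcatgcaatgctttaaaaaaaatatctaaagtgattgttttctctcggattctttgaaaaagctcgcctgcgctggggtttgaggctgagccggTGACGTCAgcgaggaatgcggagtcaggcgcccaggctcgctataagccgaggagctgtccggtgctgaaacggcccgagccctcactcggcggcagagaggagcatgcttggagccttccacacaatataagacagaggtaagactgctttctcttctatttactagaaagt
The element began 90 bases before the start of Vgf and 123 bases before that of Scg2. These letters read the same on both strands, and they were in 525 of 27457 promoters of this length (1.91%) and in 337 of the 11104 that belong to tested genes (3.03%). Among the promoters that could be matched they were in 2 of 11 later activity-regulated genes (Vgf and Scg2), in 3 of 15 immediate early genes (Dusp1, Btg2 and Ier2) and in 2 of 8 neuropeptide genes (Sst and Cartpt). Carrying the element did not go with 1 level of response: the log2 differences were -1.86 for Vgf, -1.10 for Scg2, -1.02 for Sst, -0.27 for Dusp1, -0.06 for Btg2, 0.12 for Ier2 and 0.44 for Cartpt. A match is a description of the letters and not evidence of binding.

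Neuropeptide precursors held the most negative difference of all listed genes, that of Vip. Of 13 tested, 3 were lower (5.34% of all genes) and 0 higher at an unadjusted p, with a median of -0.57. Vip was measured at 32.5, 5.83 and 1.25 CPM with cocaine and at 55.3, 38.2 and 20.02 CPM in Control (-2.31). Pnoc, the nociceptin precursor, stood at 25.9, 7.36 and 6.31 CPM against 63.0, 46.2 and 22.6 CPM (-1.87), and Sst, the somatostatin precursor, at 449, 156 and 67.9 CPM against 462, 343 and 255 CPM (-1.02). Somatostatin and vasoactive intestinal peptide mark separate classes of inhibitory interneuron. Cartpt, a peptide named for its induction by cocaine in the striatum, was not lower, at 10.99, 7.91 and 6.35 CPM against 8.47, 6.37 and 3.77 CPM (0.44, unadjusted limma p 0.283).

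Outside the neuronal lists, genes of cholesterol synthesis were the list with the largest share of members lower at an unadjusted p. Of 16 tested, 8 were lower (5.34% of all genes) and 0 higher at an unadjusted p, with a median of -0.34 and differences from -0.55 to 0.07. Relative to the Control mean the list median was -0.09, -0.36 and -0.52 in the Cocaine libraries, against 0.07, 0.11 and -0.13 in Control. Cocaine 1 thus lay inside the Control range here as well, and 2 of the 16 genes were below all Control libraries. Srebf2, the transcription factor of the pathway, was below all Control libraries, as were 2.68% of all genes, at 141, 119 and 117 CPM with cocaine against 153, 165 and 151 CPM (-0.31), and so was the enzyme Sqle, at 144, 129 and 121 CPM against 152, 153 and 170 CPM (-0.27). Astrocytes, oligodendrocytes and neurons all make cholesterol. In the promoters of 11 of these genes the sterol element letters TCACNCCAC, sought on both strands, were in 0, against 310 of all 27457 (1.13%). The glycolytic genes Aldoa (-0.47) and Pgk1 (-0.43) were lower at an unadjusted p, 2 of 14 hypoxia and glycolysis genes (5.34% of all genes), whose median was -0.38. Per2, a clock gene, was below all Control libraries at 31.4, 26.1 and 23.9 CPM against 38.3, 37.02 and 31.5 CPM (-0.39), as were 2 others of 14 clock genes, Clock and Hlf (2.68% of all genes), with a list median of -0.14.

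Oligodendrocyte precursor genes were higher in all Cocaine libraries for 4 of 7 genes (background 3.07%), with 3 higher at an unadjusted p (background 3.13%) and a median of 0.67. Olig1, a lineage transcription factor, was measured at 271, 238 and 400 CPM with cocaine and at 208, 181 and 210 CPM in Control (0.57). Its partner Olig2 stood at 103, 114 and 221 CPM against 95.2, 88.2 and 73.5 CPM (0.69), and the proteoglycan gene Cspg4 at 85.2, 86.5 and 129 CPM against 79.7, 74.8 and 39.4 CPM (0.67). Pdgfra, the growth factor receptor that defines the precursors, overlapped, at 342, 358 and 314 CPM against 335, 302 and 281 CPM (0.15). In the 10 myelin genes the median was 2.06 and the groups overlapped for all 10. Relative to the Control mean their median was 1.36, 0.42 and 5.11 in the Cocaine libraries and 1.49, 0.15 and -1.40 in Control. Without Cocaine 3 the list median was 0.42 for the precursor genes and 0.63 for the myelin genes.

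Microglial genes differed more within each group than between them. For 0 of 18 did the groups fail to overlap, where 3.07% of all genes were higher and 2.68% lower without overlap, and their median was 0.34. C1qa was at 318, 1222 and 930 CPM with cocaine and at 475, 898 and 385 CPM in Control. Of 20 cytokine and chemokine genes, 0 were higher (3.13% of all genes) and 2 lower (5.34% of all genes) at an unadjusted p. The 2 were Cx3cl1, a neuronal chemokine, at 257, 90.3 and 90.4 CPM against 252, 219 and 177 CPM, and Ccl5 at 0.189, 0.595 and 0.201 CPM against 0.537, 5.20 and 0.681 CPM. None of 13 astrocyte genes was past an unadjusted p, although 2 lay above all Control libraries, where 3.07% of all genes did. They were Gfap, at 5188, 5303 and 4770 CPM against 4447, 4044 and 4756 CPM, and the water channel gene Aqp4, at 1934, 1799 and 2088 CPM against 1700, 1676 and 1639 CPM. Medians of the lists of Nrf2 targets (0.02), ATF4 targets (-0.06), heat shock (0.03) and endoplasmic reticulum chaperones (-0.03) were close to that over all genes. There were 0 genes past the FDR in each and 1 past an unadjusted p, Hsph1 (-0.41), where 8.47% of all genes were past an unadjusted p. The lists of cell cycle (0.13), interferon response (-0.27), antigen presentation (0.04), complement (-0.05), fibroblast (-0.05), border macrophage (0.24), choroid plexus (0.36) and cilia (-0.35) genes had 0 members past an unadjusted p (8.47% of all genes). In these lists 0 failed to overlap, where 3.07% of all genes were higher and 2.68% lower without overlap. Among 8 glucocorticoid targets Sgk1, a kinase, was higher at an unadjusted p (3.13% of all genes), at 38.4, 46.7 and 88.4 CPM against 34.05, 36.4 and 34.5 CPM (0.62), with a list median of 0.14.

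The number of calls depended on which library was left out. Without Cocaine 1, 900 of 15591 genes passed the FDR, 178 higher (1.14%) and 722 lower (4.63%), and 363 of the lower genes differed by more than 1 on the log2 scale against 32 of the higher ones. Without Cocaine 2, Cocaine 3, Control 1 or Control 2 there were 0 calls, with 1230, 448, 892 and 881 genes at an unadjusted limma p under 0.05, and without Control 3 there was 1. Lower genes of Cocaine 2 and 3 taken alone against Control included 9 of 18 neuronal markers, 8 of 26 synaptic receptors, 5 of 12 later activity genes, 4 of 21 immediate early genes, 4 of 13 neuropeptides, 4 of 26 cocaine and monoamine genes and 6 of 16 cholesterol genes. Cocaine 1 was the Cocaine library closest to Control, so that leaving it out widens the difference. The counts and FDR without it are therefore a description and cannot serve as a test. Rgs8, a regulator of G protein signalling, had the smallest FDR among these lower genes. It was measured at 35.6, 10.7 and 5.11 CPM with cocaine and at 52.9, 43.1 and 34.1 CPM in Control, with a log2 difference of -2.45 without Cocaine 1 (FDR 0.000337) and -1.72 with it. Noct, a rhythmic phosphatase, stood at 23.9, 14.8 and 14.2 CPM against 25.7, 26.9 and 24.3 CPM, and Nmnat2, which protects axons, at 27.6, 14.9 and 12.9 CPM against 26.8, 25.9 and 25.9 CPM. Among genes higher without Cocaine 1, Cdk2, a cell cycle kinase, was measured at 9.06, 13.3 and 13.8 CPM against 7.29, 8.24 and 8.76 CPM.

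**Figure D3:**
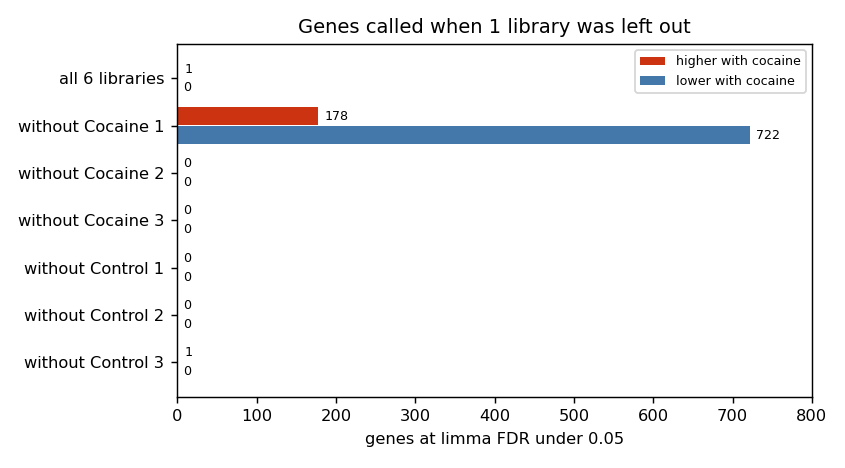
Number of genes at a limma FDR under 0.05 (x axis) higher (red) or lower (blue) with cocaine, with all 6 libraries and with each left out in turn (y axis). Leaving out Cocaine 1 gives 178 higher and 722 lower genes, and every other omission gives 0 or 1.

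The 10 genes with the largest negative difference among those below all Control libraries were chosen for that order and are given as a description. They were Kit, Chrna7, Lgi2, Cacng5, Rasgrp1, Gng4, Egr3, Zfp385d, Col19a1 and Actn2, with log2 differences from -1.72 to -1.29. Kit, the stem cell factor receptor, was measured at 41.8, 16.1 and 8.93 CPM with cocaine and at 76.7, 61.3 and 49.6 CPM in Control. Chrna7, the alpha7 subunit of nicotinic acetylcholine receptors, stood at 16.4, 5.70 and 4.99 CPM against 33.3, 25.1 and 19.2 CPM, and Cacng5, an auxiliary subunit of AMPA receptors, at 5.14, 2.76 and 2.37 CPM against 11.2, 10.4 and 9.85 CPM. Within the Cocaine group all 3 genes were highest in Cocaine 1. Actn2, an actinin that binds NMDA receptors, was at 10.8, 5.15 and 3.94 CPM against 19.8, 14.6 and 13.03 CPM. With all 6 libraries their FDR was 0.401 to 0.561, and without Cocaine 1 it was 0.00187 to 0.0184 for 9 of them and 0.097 for Egr3. The genes were chosen from these same libraries, and the library left out was the one closest to Control. The lower FDR is therefore a description and cannot serve as a test of these genes. Rasgrp1, a Ras activator, was at 37.5, 14.1 and 13.9 CPM against 79.8, 54.0 and 38.5 CPM, which leaves a narrow gap between Cocaine 1 and Control 3. Among the genes lower with the smallest p were Ntn4, a netrin of basement membranes, at 33.2, 30.03 and 29.8 CPM against 44.4, 43.7 and 51.0 CPM (-0.57), and Elfn1, a synaptic adhesion protein of interneurons, at 24.5, 16.5 and 15.6 CPM against 36.4, 31.9 and 30.2 CPM (-0.81).

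The 10 genes with the largest positive difference were of another kind. Apart from S100a4 and Thbs4, a thrombospondin at 3.21, 3.70 and 4.58 CPM against 1.34, 1.23 and 0.862 CPM, they had their high value in Cocaine 3. Plxnb3, a plexin of oligodendrocytes, was at 6.37, 9.36 and 105 CPM against 5.60, 4.90 and 3.50 CPM, and Zfp488, a transcription factor of the same lineage, at 2.12, 2.38 and 15.7 CPM against 1.80, 0.932 and 0.182 CPM. Smaller but more even differences were found for Pla2g7, a lipase of platelet-activating factor, at 127, 140 and 184 CPM against 97.4, 76.1 and 83.5 CPM (0.80), and for Lilrb3, an inhibitory receptor of myeloid cells, at 1.75, 2.81 and 2.86 CPM against 0.690, 0.735 and 1.04 CPM (1.15).

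Cocaine had also been added to Tat cultures in 5 settings, whose 30 libraries include none of the 6 above, so that the genes chosen here could be followed in libraries that did not choose them. The 10 genes with the largest negative difference had the same sign in 8 of 10 cases with Tat and in 10 of 10 with each of Tat-Amlexanox, Tat-Tazemetostat, Tat-4OI and Tat-Senicapoc. Their median log2 difference was -1.44 with cocaine alone and -0.26, -0.63, -0.88, -0.83 and -0.99 in the 5 settings. With cocaine they lay below all 3 libraries without it for 2, 7, 6, 5 and 10 of the 10, where the shares of all genes were 6.2%, 3.31%, 5.67%, 8.37% and 13.4%. The 10 genes with the largest positive difference had medians of 0.22, -0.10, -0.15, 0.03 and 0.06 in the same settings. They lay above all libraries without cocaine for 2, 0, 1, 1 and 1 of the 10, where the shares of all genes were 5.3%, 5.11%, 6.49%, 7.03% and 14.8%.

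**Figure D4:**
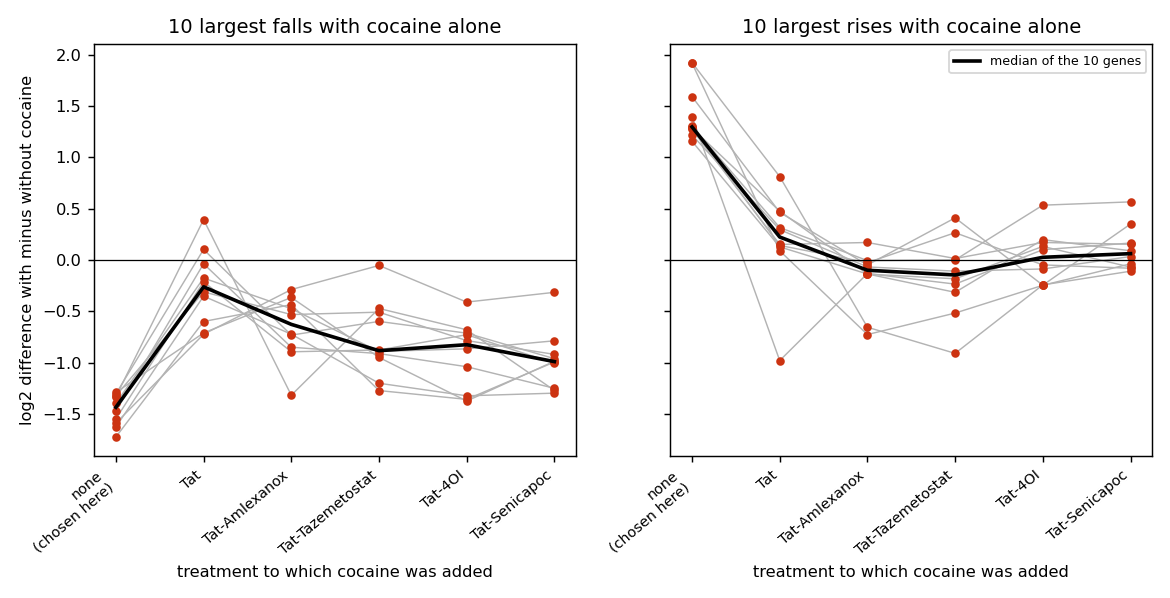
Log2 difference with minus without cocaine (y axis) of the 10 genes with the largest negative (left) and positive (right) difference for cocaine alone, in untreated cultures and in 5 kinds of Tat culture (x axis). Grey lines join 1 gene and the black line is the median, which stays between -0.26 and -0.99 on the left and between -0.15 and 0.22 on the right outside the cultures that chose the genes.

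To test this over the whole table, the mean of the 5 additions was fitted over all 48 libraries, a test added after the data had been seen. It called 723 of 15890 genes (4.55%), 261 higher (1.64%) and 462 lower (2.91%), and 401 to 1381 genes with 1 of the 30 libraries left out. Of the 10 genes with the largest negative difference 8 fell in the mean of 5 additions, the exceptions being Lgi2 (FDR 0.0894) and Egr3 (FDR 0.0519), and so did all 5 lower genes with the smallest p (Ntn4, Elfn1, Cacng5, Osbpl3 and Col26a1). Of the 10 with the largest positive difference 0 were called. Taken the other way, 433 of the 462 genes that fell in the Tat cultures (93.7%) were below 0 with cocaine alone, where 48.9% of all genes were, and 80 of them (17.3%) were below all Control libraries, where 2.68% of all genes were. Their median in single libraries was -0.05, -0.66 and -0.73 with cocaine and 0.20, 0.02 and -0.22 in Control, so that Cocaine 1 lay inside the Control range. Of 258 genes that rose in the Tat cultures and were tested here, 218 (84.5%) were above 0 with cocaine alone, where 51.1% of all genes were. Of the 258, 39 (15.1%) were above all Control libraries, where 3.07% of all genes were. Their median in single libraries was 0.069, 0.127 and 0.166 with cocaine and -0.035, -0.043 and 0.070 in Control. Cocaine 1 thus lay inside the Control range here as well, at its upper edge.

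The level of neurons moved with this result in some settings. The median of the neuronal list was 0.19 with cocaine added to Tat, -0.11 with Tat-Amlexanox, -0.75 with Tat-Tazemetostat, -0.69 with Tat-4OI and -0.69 with Tat-Senicapoc. With the neuronal level of each library as a covariate in the fit to 48 libraries, an alternative also added after the data had been seen, the mean of 5 additions called lower 6 of the 10 genes with the largest negative difference, against 366 of all genes lower (2.3%) and 576 higher (3.62%). The log2 differences in the mean of 5 were smaller with the covariate, at -0.53 against -0.93 for Kit and at -0.57 against -0.88 for Actn2. For cocaine alone, which chose these genes, the difference went from -1.72 to -0.82 for Kit, from -1.63 to -0.73 for Chrna7 and from -1.29 to -0.60 for Actn2 with the covariate. That fit called 688 of 15890 genes for cocaine alone, 383 higher and 305 lower. Its spread was pooled over 16 groups, of which Cocaine had the largest within-group SD, and the covariate came from the same libraries. S100a4 was past the threshold there at 1.12 (limma FDR 0.0173), but not where only the 6 libraries were fitted.

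Col26a1, a collagen gene, was lower with cocaine in every setting. It was measured at 0.943, 1.40 and 0.643 CPM with cocaine alone and at 2.84, 2.79 and 1.95 CPM in Control, a log2 difference of -1.03, with Cocaine 1 as low as the others. In the 5 Tat settings the differences were -1.06, -0.66, -1.07, -1.01 and -1.18, and the libraries with cocaine lay below those without it in 5 of 5 (FDR 1.1e-05 in the mean of 5). Its level was low in all 16 groups, which limits its precision. Nr4a1, an immediate early nuclear receptor, was measured at 17.3, 7.36 and 11.7 CPM with cocaine alone and at 29.6, 19.96 and 15.3 CPM in Control (-0.84), so that Cocaine 1 overlapped Control 3. In the Tat cultures it fell by 1.12 on the log2 scale in the mean of 5 additions (FDR 1.24e-06), with libraries that did not overlap in 5 of 5. Egr4 and Npas4 fell there by 1.32 and 1.73.

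**Figure D5:**
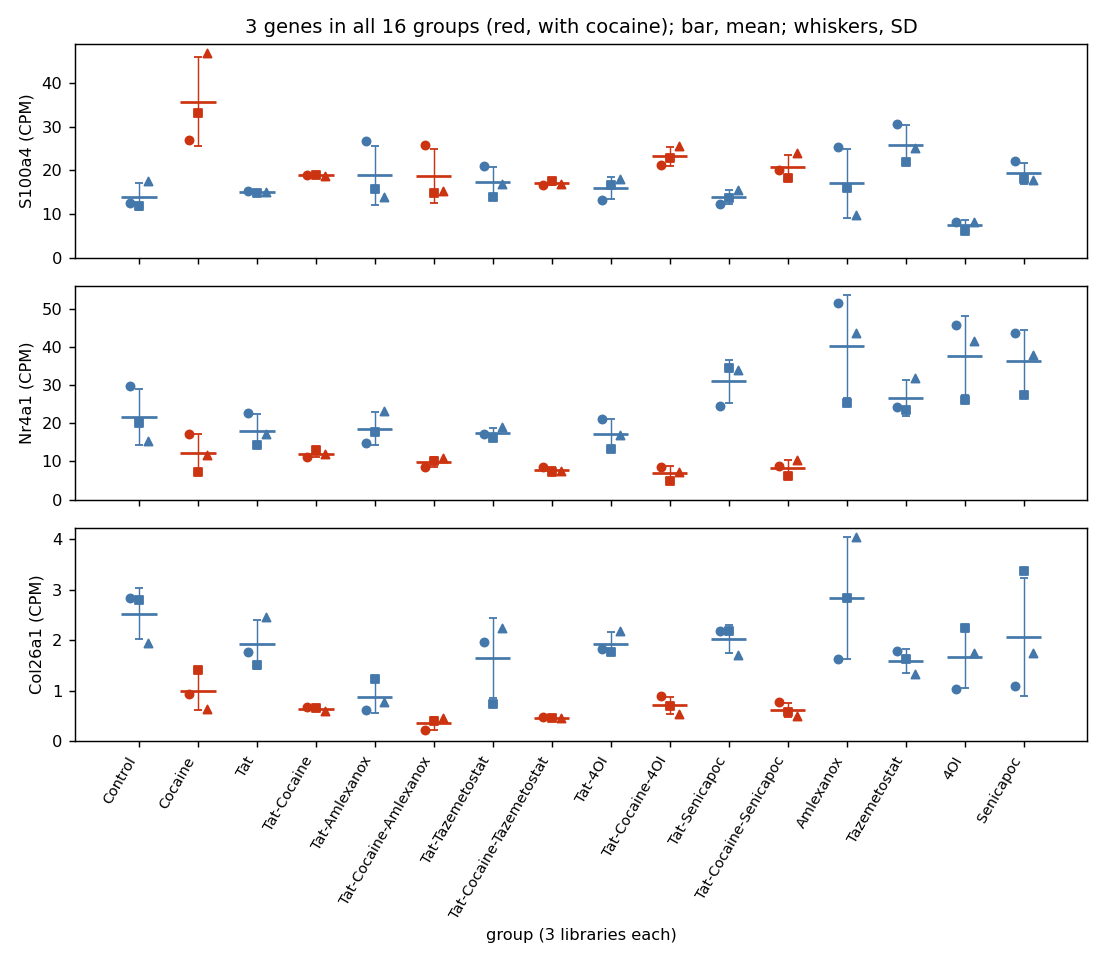
Expression in CPM (y axes) of S100a4, Nr4a1 and Col26a1 in the 16 groups of 3 libraries (x axis), red with cocaine and blue without, with the mean (bar) and SD (whiskers). S100a4 is high with cocaine alone at 26.9 to 46.8 CPM, and Nr4a1 and Col26a1 are lower with cocaine in each of the 5 Tat settings.

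Members of several lists passed the FDR in the mean of 5 additions, although the list medians differed between settings. With cocaine added to Tat itself the medians were 0.35 for neuropeptides, 0.26 for synaptic receptors, 0.19 for neurons and 0.05 for later activity genes. For cocaine alone they were -0.57, -0.50, -0.76 and -0.86. These differences between list medians were not tested. Gene by gene the difference was tested as an interaction, given below, which called 1 gene, Ptpru. Of 21 immediate early genes 8 fell and 1 rose, the one that rose being Jun (0.25, FDR 0.00061), which with cocaine lay above the libraries without it in 5 of 5 settings. There were 5 of 12 later activity genes, 3 of 13 neuropeptides, 4 of 26 synaptic receptors, 6 of 19 neuronal markers, 5 of 16 cholesterol genes, 3 of 14 hypoxia and glycolysis genes and 2 of 26 cocaine and monoamine genes (Drd1 and Slc29a4) that fell, against 2.91% of all genes. The precursor list, with 4 of 7 genes above all Control libraries for cocaine alone, had 0 called and a median of -0.07. No gene of the S100, astrocyte, microglia, oligodendrocyte or interferon lists was called. S100a4 itself was at 14.8 to 15.3 CPM with Tat and at 18.75 to 18.95 CPM with Tat and cocaine, a log2 difference of 0.32 (unadjusted limma p 0.101). Its difference in the mean of 5 additions was 0.28 (FDR 0.12), and in the 4 settings with a compound it was -0.01, 0.00, 0.53 and 0.57. The S100a4 libraries with cocaine lay above those without it in 3 of the 5 settings.

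Whether cocaine acted differently without and with Tat was tested as an interaction over the same 15609 genes. Tat-Cocaine against Tat by itself called 2 genes (0.0128%), with 841 (5.39%) at an unadjusted p under 0.05. The interaction called 1 gene (0.00641%), Ptpru, a receptor tyrosine phosphatase of cell contacts, and 1092 genes (7%) at an unadjusted p under 0.05. Ptpru was measured at 20.7, 17.4 and 17.3 CPM with cocaine alone and at 23.9, 22.3 and 25.7 CPM in Control, a log2 difference of -0.37, while with Tat the difference was 0.74, from 11.7 to 15.1 CPM without cocaine to 21.1 to 24.3 CPM with it. The call was lost in 10 of 12 omissions of 1 library, with interactions of 1.03 to 1.21, and was kept without Cocaine 1 or Tat replicate 3. For S100a4 the interaction was -0.99 (unadjusted limma p 0.00139, FDR 0.691), so that its larger difference without Tat did not pass the test over all genes.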

How the data were processed

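RNA-seq was done by the authors on directional libraries read from both ends. Per the paper's methods, uniquely mapped reads were aligned with STAR and counted per gene with featureCounts, and the counts were scaled by TMM in edgeR. The methods name the build Rnor_6.0, the labels mRatBN7.2, with STAR 2.7.2, Trim Galore 0.4.5, SAMtools 1.5 and Subread 1.5.3. The deposited table holds, for 30211 genes, CPM after TMM, which the authors made from gene counts divided by scaled library sizes and which are treated here as a normalized signal. Its columns of fold changes, likelihood ratios, p-values, FDR and group means are the authors' own comparisons and were not used. From the smallest step between values, library sizes of the 6 libraries were 19.9 to 26.03 M reads. Since 86.1% to 86.4% of values were whole reads (tolerance 0.02), no count test was run.

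Values were taken as log2(CPM + 0.5) and fitted with limma 3.58.1 (R 4.3.3, eBayes with a trend) to the 21 libraries of the 7 groups of the paper (Control, Cocaine, Tat, Tat-Cocaine, 4OI, Tat-4OI and Tat-Cocaine-4OI), 1 mean per group, with 14 residual degrees of freedom. Genes needed 0.5 CPM in at least 3 of these libraries, which is 10.2 to 13.0 reads in the 6 libraries, and 15609 passed. FDR is Benjamini-Hochberg over all genes tested, calls are under 0.05, and differences are Cocaine minus Control on that log2 scale, which understates changes of low genes. The fit was also run on simulated counts, in which all groups had the same spread per gene and genes varied independently. That run cannot show how the fit handles the wider spread of Cocaine or shifts that many genes of a library share. Lists held 481 genes, of which 433 were tested.

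Named genes were those past the FDR, the 10 largest differences and 5 smallest p in each direction among genes of at least 1 CPM whose groups did not overlap, at most 4 genes by p and the defining genes in each list, 6 genes above and 6 below per Cocaine library, 10 in each direction when Cocaine 1 was left out, and 5 by the interaction. Other list members were named after their values were seen to show the opposite or an overlapping pattern. Members and lists were chosen with earlier results of these data known. Alternatives were other pseudocounts, filters, scalings, weights, sample sets, a replicate block and each library left out. The labels do not say whether the replicate number pairs the samples. Deviations of Cocaine and Control libraries with the same number correlated at 0.55, 0.26 and -0.25. The values for libraries with different numbers were not kept, so these values cannot decide it. Some results on single genes are not reported here.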

Additional observations from a re-analysis of the deposited data

Results flagged for a closer look

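The cocaine effect on Ptpru differed between cultures without and with Tat. The log2 difference with cocaine was -0.37 without Tat and 0.74 with it, and the difference between these values, tested as an interaction in limma, was 1.11 (FDR 0.0363). The call was lost in 13 of 25 alternatives, in 10 of which 1 library was left out, with FDR of 0.0545 to 0.846. In the cultures that had a compound with Tat the differences were 0.03, -0.37, -0.09 and -0.22, with overlapping libraries in each.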

How the results depend on the processing

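The count of 1 gene for cocaine against Control was 2 with no filter on low values, 0 when only the 6 libraries were fitted (333 genes at an unadjusted limma p under 0.05), 32 over all 48 libraries, 688 with the neuronal level as a covariate, and 0 to 900 over the omissions of 1 library. The interaction count of 1 was 0 when only the groups compared were fitted, 0 over 48 libraries, 19 with the covariate and 0 to 321 over the omissions, the highest without Cocaine 1. The 723 genes of the mean of 5 additions were 1093 with only the groups compared, 2204 with library weights and 401 to 1381 over the omissions, lowest without Tat-Tazemetostat replicate 3 and highest without its replicate 2. It was 444 without Tat-Amlexanox replicate 3, 455 without Tat-Senicapoc replicate 1 and 408 without Tat-Cocaine-Amlexanox replicate 1. Whether the replicate numbers pair the samples is not known. With the replicate block the counts were 1, 0 and 1150. For Nptx1 the log2 difference of -0.31 with cocaine alone became 0.41 with the covariate. The cause was not tested in any of these cases. S100a4 was not called when only the 6 libraries were fitted (FDR 0.997). The median SD of the Cocaine libraries was 0.226 to 0.243 under the alternatives and stayed the largest of 16. Of the values of named genes for cocaine alone, 1549 kept their direction and side of the threshold, 106 came past it and 5, all of S100a4, lost it. S100a4 was the only gene called in the main fit, so that the 1549 were mostly genes not called that stayed so. That number is no measure of how firm a call is.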
